A study of Mus musculus with 16 samples.

Results

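The livers of corn oil sons were compared with those of corn oil daughters, that is, of the male and female offspring exposed in utero to corn oil, the vehicle. The 8 libraries, 4 of sons and 4 of daughters, were chosen by their labels from the 16 libraries of the series, and no measured value entered the choice. All 16 mice were C57BL/6J, and their livers were taken at 24 weeks of age. The other 8 libraries are from 4 sons and 4 daughters exposed in utero to BPA, bisphenol A, a plasticizer with weak oestrogen-like activity. They served for a side-by-side comparison. They also entered the expression filter, the scaling and the estimate of the spread in the fit, which was made over all 16 libraries. No transgene or deletion was named in the labels. The sample was whole liver, so that a lower level in 1 sex can stand for fewer cells of a type or for less RNA per cell, which cannot be told apart. Dose, litters and mothers could not be taken from the labels, and the p-values measure the spread between these libraries. Sons carry the numbers 2, 3, 7 and 10 in the labels and daughters 1, 4, 17 and 18, and values by library follow that order throughout.

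The adult rodent liver is among the most sexually dimorphic organs outside the reproductive tract. Males secrete growth hormone from the pituitary in separated pulses and females secrete it more continuously. The receptor passes each pattern to the transcription factor STAT5B, which acts with the liver factors HNF4A and HNF6. The repressor BCL6 is known for its higher level in males, and CUX2 for its expression in females. The genes known to follow these patterns include the pheromone-carrying major urinary proteins, the cytochromes P450 that oxidize steroids and drugs, sulfotransferases and organic anion transporters.

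Each library held 22910000 ± 1210000 counts in sons and 22810000 ± 3670000 in daughters (mean ± SD, n = 4 each), between 19360000 and 26790000 in all, and 14490 ± 134 and 14920 ± 138 genes had a count. The label check gave 11310 to 21080 counts of Xist, the RNA of the inactive X, in daughters against 15 to 37 in sons, and 1469 to 1650 counts of the Y-linked Eif2s3y in sons against 0 in every daughter. The first principal component, which held 42.7% of the variance among the 8 libraries, separated the sexes. Albumin and the other hepatocyte markers summed to 143100 ± 8816 CPM (counts scaled by each library's total and normalization factor) in sons and 145200 ± 9356 in daughters (exact two-sided permutation p = 0.714). Of the 7 markers, 3 were higher in sons (Ttr, Apob and Cyp2e1) and 0 in daughters. Alb took 8.04% ± 0.568 of all counts in sons and 10.1% ± 0.520 in daughters, without overlap (exact permutation p = 0.0286, adjusted p = 0.0334 over the library measures). That share is of unscaled totals. In CPM Alb overlapped between the sexes (77310 to 91840 in sons, 88530 to 104200 in daughters). Its log2 difference did not pass (-0.17 ± 0.09, adjusted p = 0.202 in edgeR's quasi-likelihood test). Among 11478 autosomal genes of at least 1 CPM on average, the library that most often stood far from the 3 others of its sex was son 7, in 2.2% of them, and daughter 18 did so least often, in 0.845%.

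Of 12925 autosomal genes tested, 1375 were higher in sons (10.6% of those tested) and 920 were higher in daughters (7.12%), 2295 in all (17.8%), at an adjusted p under 0.05 in edgeR's quasi-likelihood test. Of these, 187 genes higher in sons and 346 higher in daughters differed by at least 2-fold, and 30 and 24 by at least 16-fold. The median size of a called difference was 0.54 on the log2 scale. In 2887 autosomal genes (22.3% of those tested) every library of 1 sex lay above every library of the other, and 1967 of the 2295 called genes (85.7%) were among them. The split between the sexes depended on the scaling of the libraries: with factors of the TMM method (trimmed mean of M values) 59.9% of the calls were higher in sons, with upper quartile factors 38.2%, and with library totals only 19.2% (458 against 1930 genes), where the median difference over all genes moved by -0.16 on the log2 scale. Without son 7, 760 genes were higher in sons and 658 in daughters. A fit of the corn oil libraries alone called 911 genes higher in sons and 814 in daughters.

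**Figure D1:**
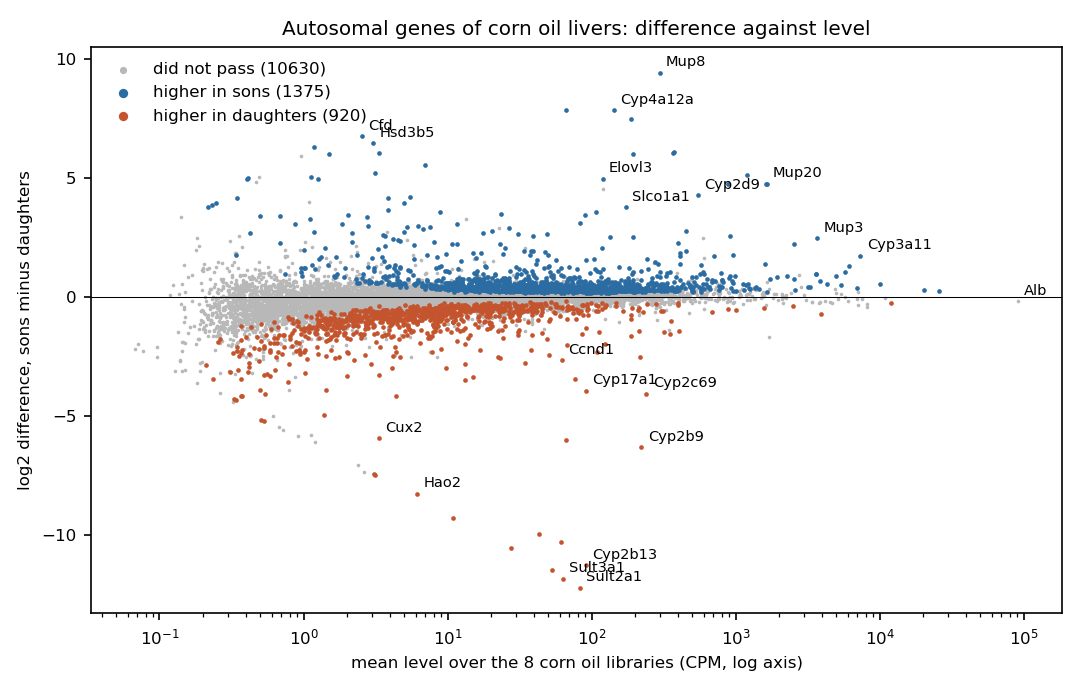
Difference between corn oil sons and daughters (log2, sons minus daughters) against the mean level (CPM, logarithmic axis, 8 libraries) for 12925 autosomal genes. Coloured points passed the test, 1375 higher in sons and 920 higher in daughters, and a gene with 0 counts in every library of a sex is drawn at its lower bound. The widest differences lie towards daughters, in genes with no counts in any son.

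The genes that differed most towards sons were of 3 kinds: the Mup genes, which encode the major urinary proteins, steroid- and fatty acid-oxidizing enzymes, and a few genes of other functions. Cyp4a12a, a fatty acid and arachidonic acid hydroxylase on chromosome 4 (4:115299046-115332815, GRCm38), had 203, 316, 343 and 273 CPM in the sons and 0.140, 0.968, 3.77 and 0.181 in the daughters. The sexes did not overlap, and the difference was 7.87 ± 0.65 on the log2 scale (SE, adjusted p = 5.53e-06). Its neighbour Cyp4a12b shares 62.9% of its 31-base words with other genes, so that reads may have been split between the pair. Summed, both genes had 415 ± 87.3 CPM in sons and 1.86 ± 2.46 in daughters, a ratio of 224 (exact two-sided permutation p = 0.0286, adjusted p = 0.035 over 11 family sums). No smaller permutation p is possible with 4 against 4 libraries. Hsd3b5, a keto-steroid reductase, had 5.94, 6.75, 4.82 and 6.62 CPM in the sons and 0, 0, 0.193 and 0.0725 in the daughters, a difference of 6.47 ± 0.96 (adjusted p = 0.000598). Cml5 differed by 6.08 ± 0.50 and was steady in the sons, between 6.14 and 6.92 CPM against at most 0.155 in a daughter. Treh, the enzyme that splits trehalose, had 1.11 to 5.15 CPM in sons and counts in 1 daughter alone. Pitx3, a homeobox factor best known from the eye and from dopamine neurons, had 1.34 to 3.42 CPM in sons and counts likewise in daughter 18 alone. Pitx3 (19:46135685-46148326, − strand) meets end to end with Elovl3 (19:46131897-46135694, + strand), a fatty acid elongase gene that was higher in sons too. Whether the counting used strand is not stated in the labels, and reads that run past the end of 1 gene into the other cannot be told apart. Asns, asparagine synthetase, had 0.453, 4.91, 12.3 and 6.71 CPM in sons against at most 0.387 in daughters, so that the sexes were separate while the sons themselves were widely spread.

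Genes with no counts at all in any son made the widest differences towards daughters. Sult2a1, which sulfonates steroids and bile acids, had 219, 122, 113 and 207 CPM in the daughters and 0 in each son, so that its level was at least 4770-fold higher in daughters (against a floor of 3 counts over the 4 sons). Sult3a1, a sulfotransferase that acts on amines, had 93.7, 136, 132 and 145 CPM in daughters and was at least 3680-fold higher there. A1bg, a secreted immunoglobulin-domain protein, had 17.6, 21.3, 25.7 and 23.0 CPM and was at least 627-fold higher. Adjusted p-values of these 3 genes were 5.7e-07, 0.000115 and 0.000406. Gm4794 (10:33766424-33786704), near Sult3a1 (10:33857721-33879532), was at 0 in every son too, with 4.53 to 6.93 CPM in daughters (at least 174-fold; adjusted p = 0.0231, but 0.0518 without daughter 17 and 0.0502 without son 7). Hao2, a peroxisomal hydroxyacid oxidase, had 3 counts in all in the sons, all in son 2. Its mean in daughters was 12.3 ± 9.50 CPM, a ratio of 349 with a counting interval of 119 to 1700. Low values of the deposited counts pile up at 7, 13 and 20, so that a count need not stand for a single read. The interval and the at-least folds, here and below, take each count as a read. The interval may thus be too narrow and the folds too high.

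Cyp2b9, a phenobarbital-family P450, had 7.25, 8.00, 1.31 and 5.41 CPM in sons and 566, 386, 349 and 452 in daughters, a difference of -6.32 ± 0.59 (adjusted p = 1.73e-05). Slc22a26, a transporter of the organic anion family, had 1.46, 2.50, 2.11 and 1.92 CPM in sons and 139, 107, 133 and 144 in daughters, a difference of -6.02 ± 0.42 (adjusted p = 7.31e-07). Within each sex both genes varied little next to the distance between the sexes. Adra2a, an adrenergic receptor, showed the smallest of these 15 differences (-4.96 ± 1.19). Its daughters were uneven, with 0.839, 4.07, 0.918 and 4.86 CPM. Among the genes with the largest differences, limma-voom with quality weights did not call Mup8, Mup13, Cfd, Hsd3b5, Asns, Mup17, Cyp3a41b, A1bg, Gm4794, Hao2 and Adra2a.

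**Figure D2:**
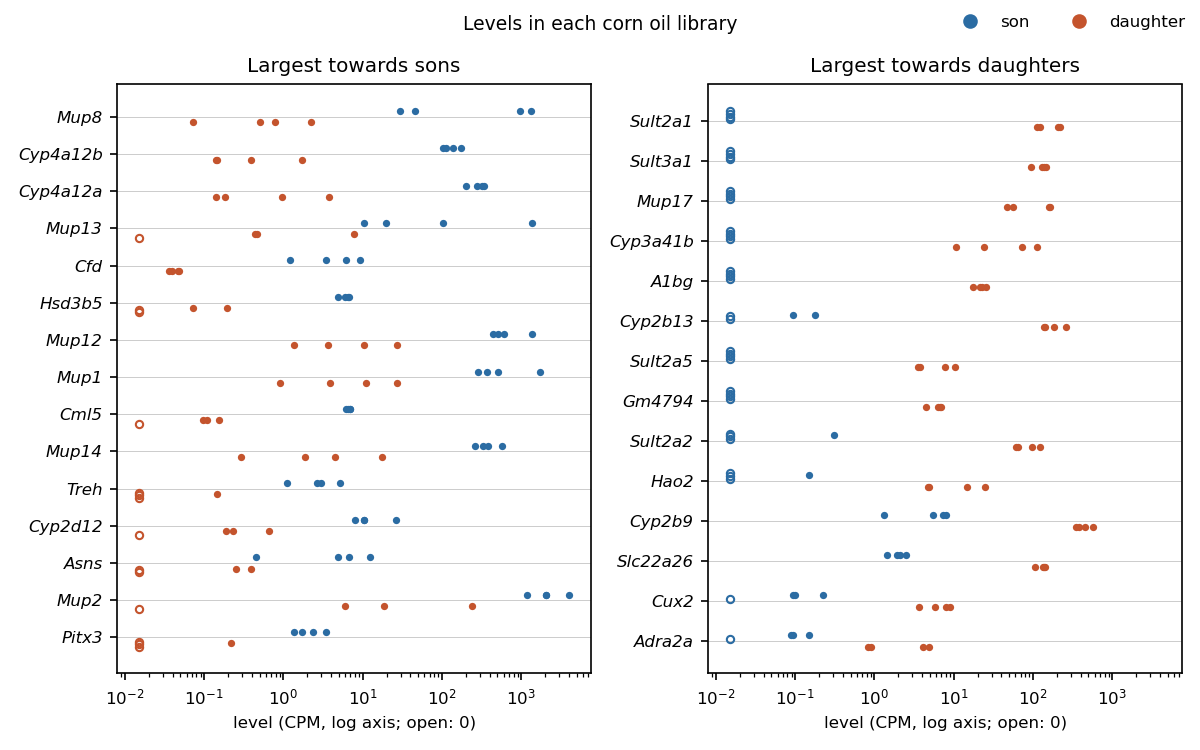
Level in each corn oil library (CPM, logarithmic axis) of the 15 autosomal genes with the largest difference towards sons and of 14 of the 15 towards daughters among genes that passed, averaged at least 1 CPM and did not overlap between the sexes; each circle is 1 library and an open circle at the edge is a library with 0 counts. In 7 of the daughters' genes all 4 sons are open circles, while none of the sons' genes was at 0 in all 4 daughters.

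Promoter sequences are shown for daughter-biased genes whose window, 250 bases before to 50 after the RefSeq start site (GRCm38.p6), held letters of the sites that STAT5 and HNF6 or CUX2 are known to bind, and for 3 Mup genes whose levels differed although their sequences are near copies. Capitals mark TTCNNNGAA, the STAT5 core, and ATTGAT, an HNF6 and CUX2 core, or its reverse complement ATCAAT. Lower-case letters are the bases between and around them.
Sult3a1 (chr10:33857603-33857663, + strand): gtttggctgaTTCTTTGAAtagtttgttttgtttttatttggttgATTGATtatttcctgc
A1bg (chr15:60921336-60921430, − strand): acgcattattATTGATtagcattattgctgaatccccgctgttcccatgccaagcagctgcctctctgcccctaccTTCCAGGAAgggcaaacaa
Slc22a26 (chr19:7802710-7802818, − strand): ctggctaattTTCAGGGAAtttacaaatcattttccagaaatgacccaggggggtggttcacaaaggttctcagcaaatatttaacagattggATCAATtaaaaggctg
Mup2 (chr4:60139994-60140082, − strand): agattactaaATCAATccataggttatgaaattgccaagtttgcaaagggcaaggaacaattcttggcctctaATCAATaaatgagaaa
Mup17 (chr4:61595965-61596053, − strand): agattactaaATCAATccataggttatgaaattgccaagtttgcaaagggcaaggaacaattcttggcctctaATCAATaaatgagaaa
Mup14 (chr4:61304085-61304173, − strand): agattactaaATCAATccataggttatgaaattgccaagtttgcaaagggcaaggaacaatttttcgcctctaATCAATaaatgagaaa

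Sult3a1, A1bg and Slc22a26 each hold both kinds of letters within 1 window. A match of letters is no evidence of binding, and the lack of one speaks only of this window. Both strands were searched for TTCNNNGAA, ATTGAT and ATCGAT. Of the 30 genes with the largest differences, 18 had a promoter in the table, 7 higher in sons and 11 in daughters. TTCNNNGAA stood in 0 of the 7 and 3 of the 11, and ATTGAT in 2 of the 7 and 5 of the 11. Among all called genes of at least 4-fold, ATTGAT stood in 11 of 59 promoters of genes higher in sons (18.6%) and 10 of 68 of genes higher in daughters (14.7%), next to 4.39% of 9615 promoters of tested autosomal genes and 7.42% of all 32544 promoters. Gene copies such as the Mups, which share their letters, are counted singly in these shares. TTCNNNGAA stood in 8.47% and 8.82% of the same sons' and daughters' promoters, next to 7.21% of those tested and 8.33% of all. ATCGAT was rare, in 0.78% of tested promoters, 1 of the 59 and 0 of the 68.

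The major urinary proteins, lipocalins that bind pheromones and leave the body in urine, were in sum 10.7-fold higher in sons: 20070, 20060, 23090 and 25930 CPM against 2430, 1614, 2528 and 1731 in the daughters (exact permutation p = 0.0286, adjusted p = 0.035). Of 19 Mup genes tested on chromosome 4, 14 were higher in sons, 1 was higher in daughters and 4 did not pass, with a median difference of 4.53 on the log2 scale next to 0.01 over all autosomal genes tested. Mup20, known as darcin, the pheromone of male urine, had 3259, 2969, 3246 and 3160 CPM in sons and 60.5, 63.3, 251 and 90.8 in daughters. Daughter 17 was highest among the daughters in Mup20, Mup7, Mup12, Mup13 and Mup14, and it had the highest Cyp4a12a and Cyp4a12b of the daughters too. Mup3 differed by 2.48 ± 0.31 (6218 ± 419 against 1114 ± 116 CPM) and Mup21 by 3.58 ± 0.33.

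Mup17 went the other way, with 165, 55.7, 157 and 47.0 CPM in daughters and 0 counts in any son, at least 2860-fold higher in daughters. The promoter stretches of Mup2 and Mup17 printed above are the same letter for letter, while Mup2 was higher in sons (2050, 1186, 2060 and 4063 CPM against 0, 18.7, 6.04 and 240.4 in daughters). All 19 Mup genes share at least 20% of their 31-base words with other genes, 86.2% in Mup17, and how the authors' counting placed reads among near copies was not tested. Counts of single members are therefore uncertain, and the family sum is not touched by such placement within the family. The unevenness among copies is visible within the sons: Mup8 had 29.2, 954, 46.3 and 1345 CPM and Mup13 had 10.5, 1364, 19.7 and 101.9, while the family sum lay between 20060 and 25930 CPM. The calls of Mup1 (adjusted p = 0.0265), Mup2 (0.0401) and Mup13 (0.0284) did not hold in 4, 6 and 4 of the 8 fits with 1 library left out, where they reached 0.0672 without daughter 1, 0.0905 without daughter 4 and 0.0905 without son 3. The libraries whose omission ended the call were daughters 1, 4 and 18 and son 10 for Mup1. They were daughters 4 and 17 and each son for Mup2, and daughters 1, 4 and 18 and son 3 for Mup13.

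Cytochromes P450 of families 1 to 3, which oxidize drugs, steroids and other foreign compounds, differed in both directions. Of 46 tested, 20 were higher in sons, 11 in daughters and 15 did not pass. The 20 and 11 were 43.5% and 23.9%, next to 10.6% and 7.12% of all autosomal genes tested. Without genes of shared sequence, 12 of 22 were higher in sons and 1 in daughters, so that most of the daughters' calls were in genes of shared sequence. Within several clusters, genes lay on opposite sides. In the Cyp2c cluster on chromosome 19, 4 of 13 genes were higher in sons (Cyp2c55, Cyp2c29, Cyp2c54 and Cyp2c50) and 5 in daughters. The 5 included 3 adjacent genes, Cyp2c68, Cyp2c40 and Cyp2c69. Their differences were -1.47 ± 0.13, -2.50 ± 0.14 and -4.06 ± 0.20. Cyp2c69 had 27.0, 23.9, 30.03 and 27.9 CPM in sons and 339.7, 374, 487 and 613 in daughters (adjusted p = 3.09e-09). These genes share up to 72.6% of their words, and the sum of Cyp2c40, Cyp2c67, Cyp2c68 and Cyp2c69 was 475 ± 46.9 CPM in sons and 1518 ± 278 in daughters, 3.2-fold higher in daughters.

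The Cyp2d cluster on chromosome 15 held the opposite pattern, with 6 of 7 genes higher in sons and 0 in daughters. Cyp2d9, a testosterone hydroxylase and a classical male-specific P450, had 1097, 1020, 1180 and 859 CPM in sons and 48.4, 46.6, 60.9 and 56.4 in daughters, a difference of 4.29 ± 0.23 (adjusted p = 1.36e-08). Cyp2d26, at the end of the same cluster, was at 1103 ± 56.7 and 1070 ± 72.7 CPM and did not pass (0.04 ± 0.10, adjusted p = 0.804). On chromosome 7, Cyp2b13 and Cyp2b9 were higher in daughters with Cyp2a4 (-1.56 ± 0.27) and Cyp2a22 (-2.31 ± 0.32), while Cyp2a5, a coumarin hydroxylase, was higher in sons (1.72 ± 0.40). Cyp2a4 and Cyp2a5 are near copies, and their sum, 1260 ± 339 against 852 ± 103 CPM, overlapped between the sexes (exact permutation p = 0.0571).

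Cyp3a11, the main drug-oxidizing P450 of family 3 in mouse liver, had a mean of 11320 ± 1913 CPM in sons and 3381 ± 657 in daughters (1.74 ± 0.19, adjusted p = 2.12e-05). Cyp3a41b had 0 counts in every son and 112.5, 72.4, 24.2 and 10.6 CPM in daughters (at least 1520-fold higher in daughters). Its copy Cyp3a41a, which shares 99.9% of its words, had 213, 159.7, 233 and 168 CPM in sons and 499.6, 372, 917 and 204 in daughters and did not pass (adjusted p = 0.104). The 0 of Cyp3a41b therefore describes the deposited count and not the pair. Cyp3a44 also did not pass (adjusted p = 0.841). Son 7 had 236 CPM of it, above every daughter (66.5 to 132), while the 3 other sons had 0, 0.223 and 0.492; without son 7 its adjusted p was 0.0352, higher in daughters. The sum of Cyp3a16, Cyp3a41a, Cyp3a41b and Cyp3a44 overlapped between the sexes (exact permutation p = 0.0571). In family 4, 4 of 14 genes were higher in sons and 2 in daughters (3 and 1 without son 7). The 4 and 2 were 28.6% and 14.3%, next to 10.6% and 7.12% of all autosomal genes tested. Without genes of shared sequence the counts were 2 and 1 of 8. The peroxisome-proliferator targets Cyp4a10 and Cyp4a14, next to the Cyp4a12 genes, did not pass (-0.20 ± 0.15 and -0.44 ± 0.20).

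**Figure D3:**
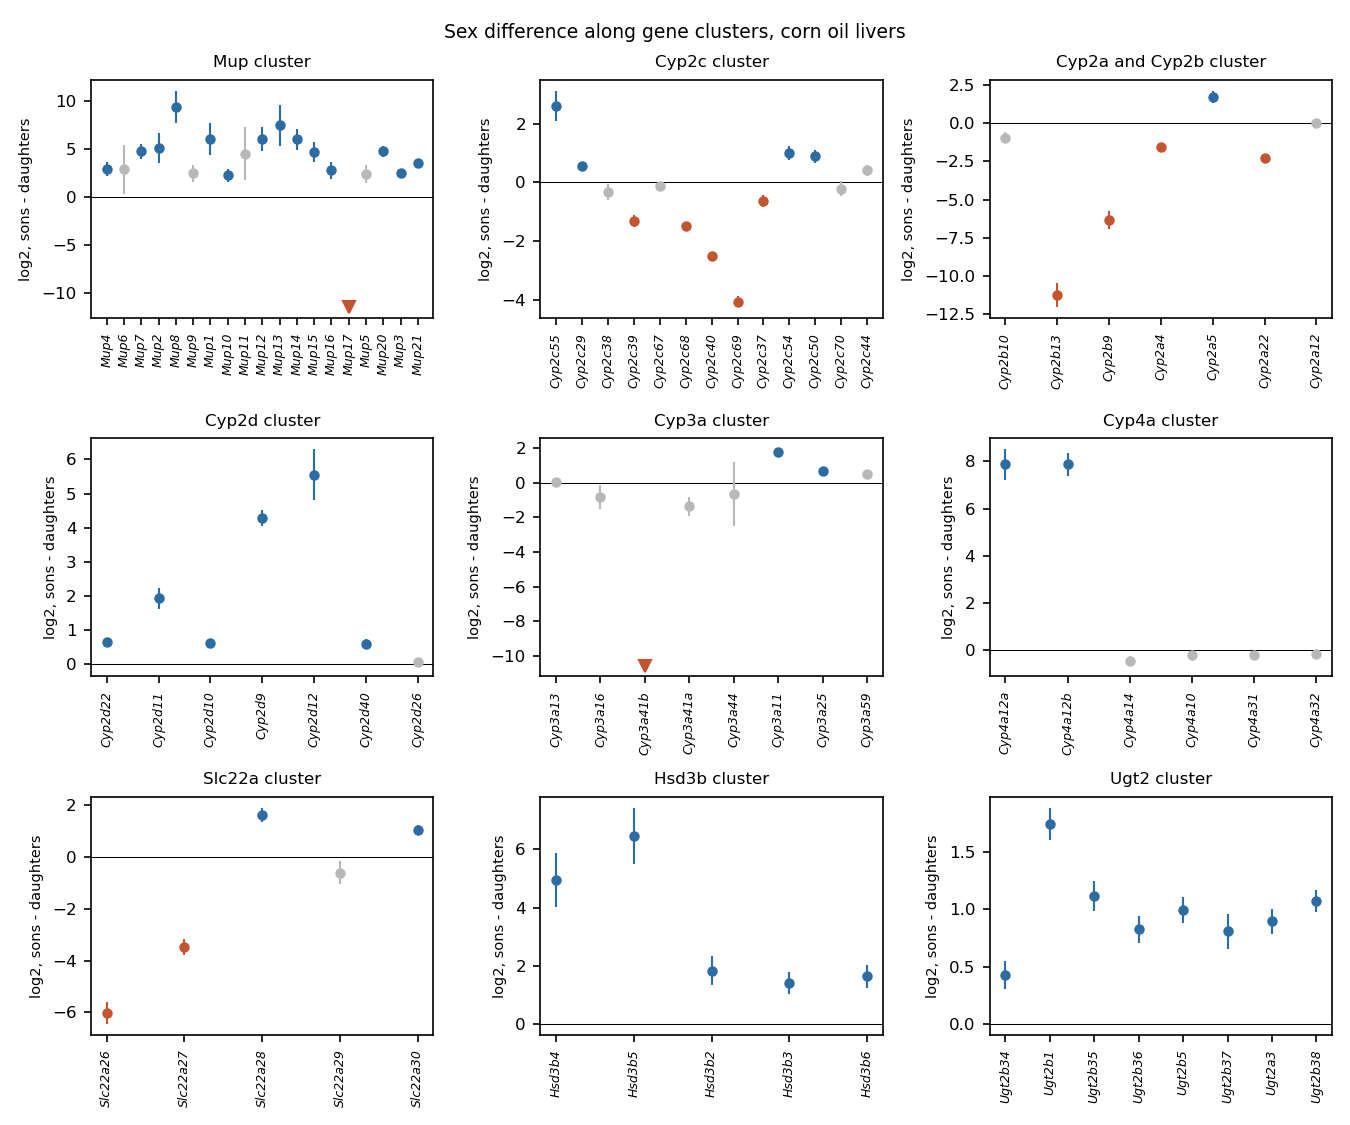
Difference between the sexes (log2, sons minus daughters, ± SE) of each tested gene in gene clusters, in chromosome order; coloured points passed the test, grey points did not, and triangles mark genes with 0 counts in all sons, drawn at their bound. Mup17 points towards daughters among neighbours that lie towards sons, and all 8 Ugt2 genes and all 5 Hsd3b genes lie towards sons. Counts of single genes that share sequence with others are uncertain.

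Conjugating enzymes, which attach a group that makes a compound easier to excrete, were split by class. Of 21 glutathione transferases 14 were higher in sons and 0 in daughters (median difference 0.88 on the log2 scale). Of 18 UDP glucuronosyltransferases 10 were higher in sons and 0 in daughters (median 0.65). The 14 and 10 were 66.7% and 55.6% of their lists, next to 10.6% of all autosomal genes tested. Without genes of shared sequence these counts were 8 and 0 of 15 glutathione transferases, and 5 and 0 of 7 UDP glucuronosyltransferases. Gstp1 and Gstp2 summed to 477, 397, 865 and 506 CPM in sons and 72.4, 111, 109 and 97.9 in daughters, 5.75-fold higher in sons. Ugt2b1 had 618, 585, 679.5 and 662 CPM in sons and 226, 161, 195 and 179 in daughters (1.74 ± 0.14, adjusted p = 8.98e-07). It was the largest of 8 differences in the Ugt2 cluster of chromosome 5, which ranged down to 0.43 in Ugt2b34.

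Sulfotransferases lay on the other side: of 12 tested, 4 were higher in daughters (Sult2a1, Sult2a2, Sult2a5 and Sult3a1), 0 in sons and 8 did not pass. The 4 were 33.3% of the list, next to 7.12% of all autosomal genes tested. Without genes of shared sequence, 1 of 7 was higher in daughters and 0 in sons. The Sult2a genes summed to 1.31 ± 0.39 CPM in sons and 267 ± 94.2 in daughters, 204-fold higher in daughters. Sult1d1, which sulfonates catecholamines, did not pass (-0.14 ± 0.12). Among the flavin monooxygenases, Fmo2 and Fmo4 were higher in daughters and Fmo5 in sons (359 ± 37.7 against 249 ± 41.7 CPM). Carboxylesterases, which split ester drugs and lipids, were higher in sons in 7 of 13 and in daughters in 1. The 7 and 1 were 53.8% and 7.69%, next to 10.6% and 7.12% of all autosomal genes tested. Without genes of shared sequence these counts were 3 and 0 of 7. Ces3a had 1469 ± 67.4 CPM in sons and 434 ± 57.2 in daughters (1.76 ± 0.12, adjusted p = 1.71e-07).

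Steroid and bile acid genes followed. Of 24 steroid-metabolizing genes 10 were higher in sons and 2 in daughters (4 and 2 of 17 without genes of shared sequence). The 10 and 2 were 41.7% and 8.33%, next to 10.6% and 7.12% of all autosomal genes tested. Srd5a1, a steroid 5-alpha reductase, was higher in sons (76.5, 62.0, 87.6 and 80.5 against 21.8, 20.02, 23.7 and 25.7 CPM), and all 5 Hsd3b genes tested on chromosome 3 were higher in sons. Of these 5, only Hsd3b3 shares less than 20% of its 31-base words with other genes (11.8%). Hsd3b4, at 0.790 CPM on average in sons, shares 100%, so that counts of the single members are uncertain. Hsd3b2 and Hsd3b3 each lost significance in 4 of the 8 fits that omit 1 library, with adjusted p up to 0.0634 (without daughter 17 or son 10) and 0.0648 (without daughter 17). For both genes these libraries included daughters 4 and 17 and son 10, with daughter 18 for Hsd3b2 and son 3 for Hsd3b3. The 2 genes higher in daughters were Cyp17a1, a hydroxylase and lyase of steroid synthesis (10.8, 7.42, 10.99 and 15.5 CPM in sons, 159, 227, 178 and 118 in daughters; -3.93 ± 0.40, adjusted p = 2.88e-05), and Hsd17b6 (115 ± 41.0 against 310.4 ± 78.9 CPM).

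Cyp7b1, the oxysterol hydroxylase of the alternative bile acid pathway, had 143, 132, 249.6 and 134 CPM in sons and 15.5, 11.6, 16.0 and 17.6 in daughters (3.44 ± 0.38, adjusted p = 5.85e-05). The sexes were separate even though son 7 was far above the other sons. In all, 6 of 33 bile acid genes were higher in sons (18.2%, next to 10.6% of all autosomal genes tested). In daughters 1 was higher (3.03%, next to 7.12%), Cyp39a1, another oxysterol hydroxylase (22.2 ± 9.61 against 75.3 ± 31.7 CPM). These counts were 4 and 1 without son 7, 4 and 3 with upper quartile factors and 4 and 5 with library totals only, where their direction turned. Slco1a1, an organic anion uptake transporter, had 304, 267, 350.3 and 365 CPM in sons and 15.6, 28.6, 25.3 and 23.9 in daughters (3.78 ± 0.31, adjusted p = 3.09e-06). The related Slco1a4 was higher in every daughter than in any son (158 ± 26.3 against 265 ± 25.6 CPM) but did not pass (adjusted p = 0.065). Among 5 Slc22a genes that lie side by side on chromosome 19, Slc22a26 and Slc22a27 were higher in daughters and Slc22a28 and Slc22a30 in sons. Of 23 cholesterol synthesis genes 1 passed, Fdps, which did not pass in 6 of the 8 fits that omit 1 library (those without daughter 1, 4 or 17 or son 2, 3 or 7; adjusted p up to 0.127, without son 7).

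Several complement genes were higher in sons. In the terminal complement pathway, whose parts form the pore in a target membrane, C6 had 135, 142.5, 185.5 and 129.5 CPM in sons and 16.3, 14.1, 19.9 and 18.8 in daughters (3.10 ± 0.20, adjusted p = 7.64e-08). C8a (645 ± 36.4 against 179 ± 54.2 CPM), C8b (361 ± 37.6 against 119.9 ± 25.4) and C9 (409 ± 41.4 against 146 ± 28.6) were higher in sons too. In the whole list 11 of 46 complement and coagulation genes were higher in sons (23.9%, next to 10.6% of all autosomal genes tested). In daughters 3 were higher (6.52%, next to 7.12%), a count that became 0 without son 7. The median difference of that list, 0.12, changed sign when libraries were scaled by totals only, where 6 were higher in sons and 7 in daughters. Cfd, complement factor D or adipsin, had 1.21, 9.38, 3.46 and 6.08 CPM in sons and 1 count in each daughter. It is known as an adipocyte product too. Of the 4 other adipocyte markers, Lep and Plin1 were at 0 in all 8 libraries, Adipoq had counts in daughter 1 alone (0.280 CPM) and Retn in son 3 alone (0.134 CPM), the son with the most Cfd. The part of that cell type in the Cfd difference was not tested.

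Serpina1 genes encode alpha-1 antitrypsin, the main protease inhibitor of plasma. Their sum was 26540, 25910, 24630 and 25550 CPM in sons and 15210, 15860, 12930 and 12970 in daughters, 1.8-fold higher in sons; the largest difference of a single gene was that of Serpina1e (2.23 ± 0.18, adjusted p = 9.3e-07). Of 18 clade A serpins 8 were higher in sons and 0 in daughters (2 and 0 of 5 without genes of shared sequence). The 8 were 44.4% of the list, next to 10.6% of all autosomal genes tested.

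Lipid genes differed in both directions. Elovl3, which elongates very long chain fatty acids, had 291, 240, 236 and 158 CPM in sons and 5.41, 2.59, 10.3 and 11.1 in daughters (4.98 ± 0.68, adjusted p = 0.00043). Acsl1, an acyl-CoA synthetase, was higher in sons (0.97 ± 0.13) and Elovl5 in daughters (-0.47 ± 0.10). Of 29 lipogenesis genes 5 were higher in sons and 5 in daughters (3 and 3 without son 7). Each 5 was 17.2% of the list, next to 10.6% and 7.12% of all autosomal genes tested. Vldlr, the very low density lipoprotein receptor, had 6.55, 6.39, 3.84 and 7.02 CPM in sons and 28.1, 17.8, 23.8 and 41.3 in daughters (-2.22 ± 0.44, adjusted p = 0.00414). Fitm1, a lipid droplet protein, went the other way (35.5 ± 7.91 against 5.09 ± 1.92 CPM). Among 39 genes of lipid uptake, storage and lipolysis 6 were higher in sons (15.4%) and 2 in daughters (5.13%), next to 10.6% and 7.12% of all autosomal genes tested. These counts were 4 and 1 without son 7, 5 and 4 with upper quartile factors or limma-voom, and 4 and 6 with library totals only, so that their direction depended on the scaling.

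Of 40 fatty acid oxidation genes 9 were higher in daughters (22.5%, next to 7.12% of all autosomal genes tested). In sons 2 were higher (5%, next to 10.6%). Without son 7 the counts were 4 in daughters and 0 in sons. In the BPA livers 1 gene of this list was higher in daughters and 1 in sons. Pdk4, the kinase that turns off pyruvate use in fasting, had 38.1, 27.0, 21.2 and 19.9 CPM in sons and 94.4, 149, 89.96 and 97.5 in daughters (-2.02 ± 0.43, adjusted p = 0.00622). Fgf21, a fasting hormone of the liver, had 17.6, 7.37, 14.5 and 9.39 CPM in sons and 30.98, 41.2, 30.3 and 28.3 in daughters (-1.43 ± 0.29, adjusted p = 0.00433). No overlap between the sexes occurred in either gene. The feeding state at collection is not stated in the labels. Of 28 genes of glucose and glycogen metabolism 4 were higher in daughters (14.3%, next to 7.12% of all autosomal genes tested) and 0 in sons. Without son 7 the counts were 2 and 0, and no lean is read from counts this small. Among 39 genes of amino acid, urea and one-carbon metabolism 10 were higher in sons (25.6%, next to 10.6% of all tested) and 0 in daughters. Among them were Gnmt, glycine N-methyltransferase (1142 ± 69.8 against 651 ± 110.4 CPM; 0.81 ± 0.12, adjusted p = 0.000515), and Tdo2, which degrades tryptophan.

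Genes of the known dimorphism were read as lists. Of 58 tested genes on a list known to be higher in male mouse liver, 43 were higher in sons, 3 in daughters and 12 did not pass, with a median of 2.10 on the log2 scale. Of 75 tested genes on a list known to be higher in females, 38 were higher in daughters, 5 in sons and 32 did not pass, with a median of -1.37. Without genes of shared sequence, 25 of 37 on the male list were higher in sons and 2 in daughters. On the female list 23 of 48 were then higher in daughters and 5 in sons. Both lists were written with earlier results of these libraries known, and their counts are not independent evidence of direction. Members that lay against their list are named after their values were seen. Higher in daughters were Pcp4l1 (-2.82 ± 0.27), Cables1 (-1.63 ± 0.36) and Lhx2 (-0.57 ± 0.18). Higher in sons were Enpp2 (0.81 ± 0.24), Adh4 (1.18 ± 0.23), Aox3 (1.92 ± 0.19), Gpc1 (2.25 ± 0.26) and Car3 (2.55 ± 0.66). Aox3, an aldehyde oxidase, had 669.5, 763, 607 and 814 CPM in sons and 201, 167, 181 and 206 in daughters. Pcp4l1 had 3.52, 3.57, 2.67 and 3.31 CPM in sons and 26.1, 21.5, 16.9 and 28.0 in daughters, again with the sexes apart. With library totals only, several counts of the metabolic and defence lists changed: those in sons and daughters were 5 and 1 for amino acid, 4 and 1 for carboxylesterase, 3 and 3 for P450 family 4 and 3 and 7 for lipogenesis genes. They were 0 and 17 for fatty acid oxidation and 0 and 8 for each of the glucose, acute phase and interferon lists.

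**Figure D4:**
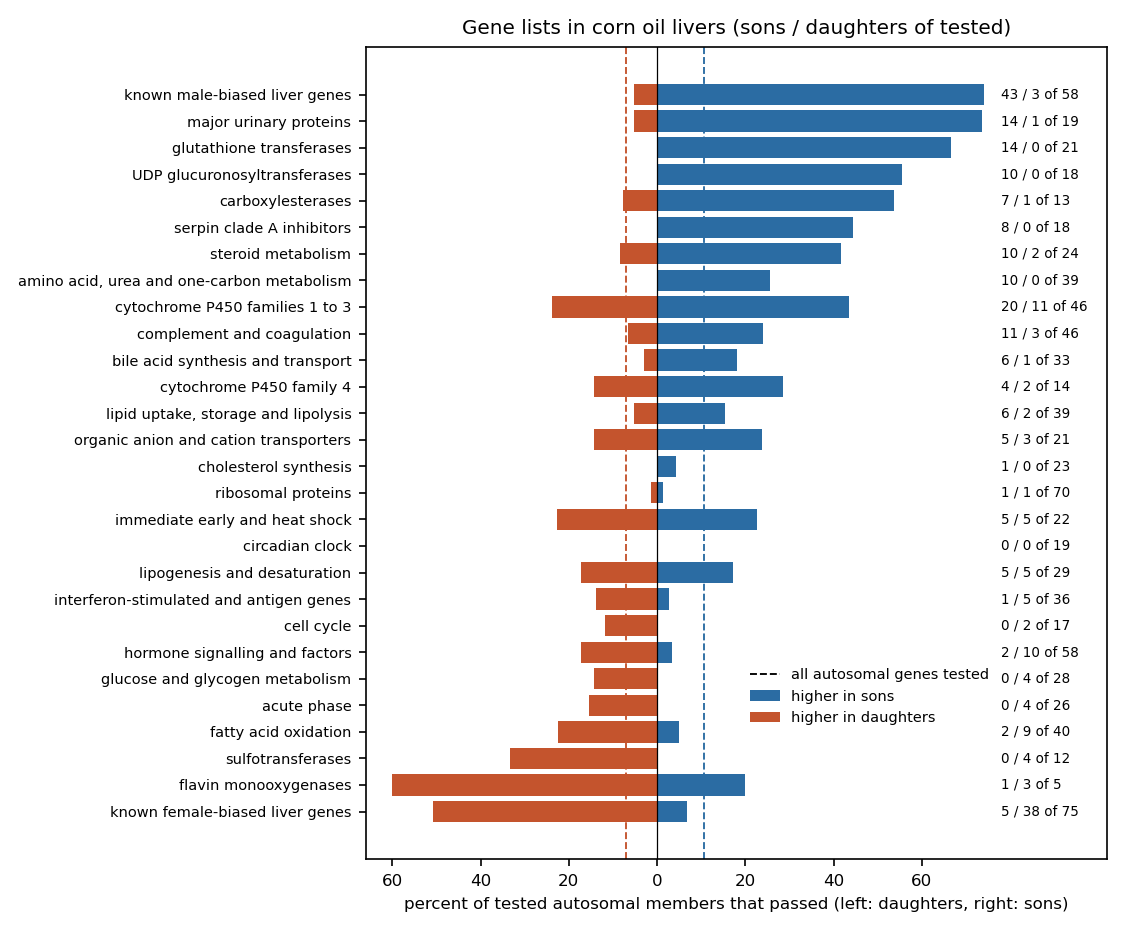
Share of the tested autosomal members of each gene list that was higher in sons (right) or in daughters (left), in percent, with the counts beside the bars; the dashed lines are the shares over all autosomal genes tested, 10.6% and 7.12%. Mup genes, glutathione transferases and UDP glucuronosyltransferases exceed the line on the sons' side, and circadian clock genes have no call on either side.

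Among 58 tested autosomal genes of growth hormone, prolactin and sex steroid signalling and of liver transcription factors, 2 were higher in sons and 10 in daughters (1 and 5 without son 7), with a median of -0.02. The 2 and 10 were 3.45% and 17.2%, next to 10.6% and 7.12% of all autosomal genes tested. Cux2 stood apart from the rest: it had 0.101, 0, 0.0936 and 0.224 CPM in sons and 5.87, 3.60, 8.99 and 8.01 in daughters (-5.92 ± 0.79, adjusted p = 0.000202). Tox, a nuclear factor of lymphocytes that is also known among the female-biased genes of liver, was higher in daughters (6.67 ± 0.88 against 17.7 ± 3.26 CPM; -1.41 ± 0.20). So was Trim24, a nuclear receptor coregulator (35.8 ± 5.73 against 67.6 ± 9.64 CPM; -0.92 ± 0.18). Foxa1, a pioneer factor of the liver, was higher in sons in every library (22.8, 21.6, 18.7 and 21.1 against 12.6, 15.0, 11.2 and 14.0 CPM; 0.67 ± 0.14, adjusted p = 0.00415).

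Ghr, the growth hormone receptor, spread as widely within as between the sexes (474, 258, 225 and 274 CPM in sons, 427, 204, 141 and 333 in daughters; 0.16 ± 0.30, adjusted p = 0.761). Stat5b (-0.13 ± 0.15, adjusted p = 0.592) and Hnf4a (0.35 ± 0.14, adjusted p = 0.0882) did not pass either. Bcl6 had 4.53, 5.58, 76.0 and 5.41 CPM in sons and 8.43, 6.35, 8.89 and 6.71 in daughters. Its mean was thus higher in sons through son 7 alone, and the other sons lay below every daughter. The difference did not pass (1.59 ± 0.88, adjusted p = 0.232).

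Prlr, the prolactin receptor, was higher in every daughter (303, 198, 227 and 259 CPM) than in any son (125, 140.3, 117 and 132), with a difference of -0.94 ± 0.28 (adjusted p = 0.0344). Leaving out 1 library ended the call in 7 of 8 fits, all but that without daughter 4, with adjusted p up to 0.0894 without daughter 1. Esr1, oestrogen receptor alpha, was higher in daughters (16.3, 15.6, 13.8 and 19.3 against 22.1, 19.98, 28.8 and 27.7 CPM; -0.60 ± 0.15, adjusted p = 0.0117). Igf1, the circulating growth factor that growth hormone induces, had 568, 476, 703 and 486 CPM in sons and 379, 512, 331 and 412 in daughters (0.45 ± 0.15, adjusted p = 0.044). The sexes overlapped in Igf1, and its call ended in 5 of 8 fits (without daughter 1, 17 or 18 or son 2 or 7), with adjusted p up to 0.189 without son 7. Igfbp1, an insulin-repressed binding protein, was at 50.7 ± 13.6 and 198 ± 88.6 CPM (-1.97 ± 0.57, adjusted p = 0.0317; the call ended in 6 of 8 fits, without daughter 1 or 4 or any 1 son, up to 0.0805 without daughter 4).

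**Figure D5:**
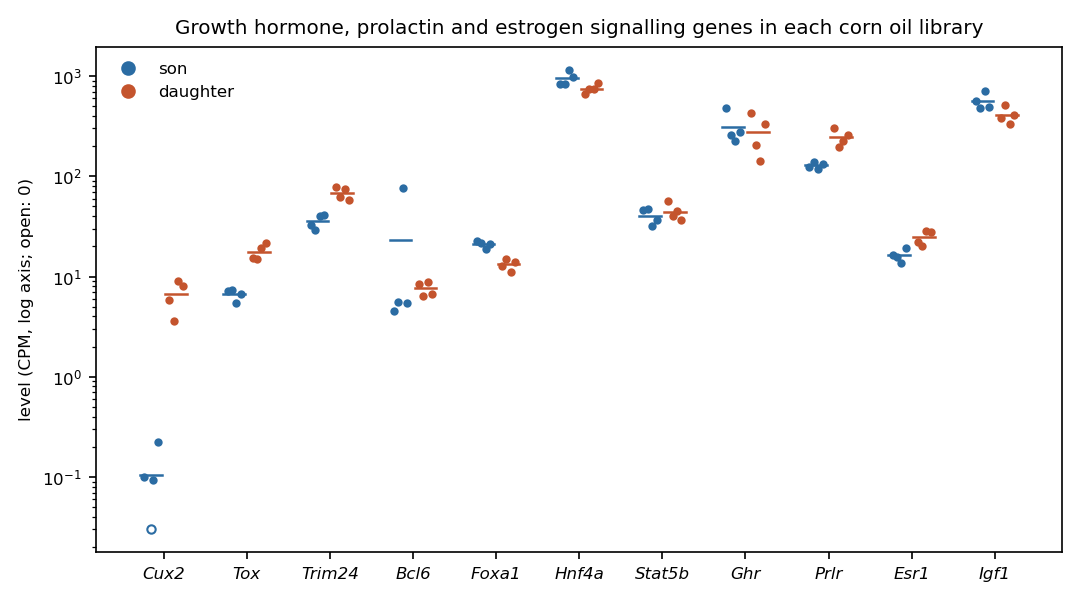
Level in each corn oil library (CPM, logarithmic axis) of hormone receptors, transcription factors and Igf1; circles are libraries, bars are group means, and an open circle at the lower edge is a library with 0 counts. Cux2 separates the sexes most widely, Ghr and Stat5b overlap, and 1 son, number 7, lies far above the 7 other libraries in Bcl6.

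Genes of growth, defence and stress differed too. Ccnd1, cyclin D1, had 15.4, 16.2, 19.6 and 17.3 CPM in sons and 87.7, 81.3, 153.5 and 106 in daughters (-2.64 ± 0.33, adjusted p = 0.000143), while 15 of 17 cell cycle genes did not pass. The 2 that passed, both higher in daughters, were 11.8% of the list, next to 7.12% of all autosomal genes tested. Nox4, an oxidase that makes hydrogen peroxide, was among the genes of lowest p, at 57.8 ± 3.48 CPM in sons and 16.9 ± 1.93 in daughters (1.77 ± 0.12, adjusted p = 7.63e-08). Of 36 interferon-stimulated and antigen presentation genes 5 were higher in daughters and 1 in sons (4 and 0 without son 7), with a median of -0.53. The 5 and 1 were 13.9% and 2.78%, next to 7.12% and 10.6% of all autosomal genes tested. Gbp3, a guanylate-binding protein, was at 6.54 ± 2.19 and 16.6 ± 6.25 CPM. Of 26 acute phase genes 4 were higher in daughters (15.4%, next to 7.12% of all autosomal genes tested) and 0 in sons. None of the 4 remained without son 7. Of 22 immediate early and heat shock genes 5 were higher in sons and 5 in daughters, with a median of -0.61. Each 5 was 22.7% of the list, next to 10.6% and 7.12% of all autosomal genes tested. The counts were 5 and 2 without son 7, 2 and 2 by limma-voom and 5 and 8 by DESeq2. Higher in sons were the heat shock chaperones Hspa1a and Hspa1b, their partners Dnajb1 and Bag3, and the AP-1 subunit Jund. Higher in daughters were Egr1, Ier3, Atf3, Nr4a1 and Btg2, genes known for rapid induction by growth signals or stress. The chaperones Hspa1a and Hspa1b summed to 41.3, 40.1, 240.5 and 227 CPM in sons and 21.1, 22.9, 26.4 and 18.1 in daughters: sons 7 and 10 were high, and the sons' 2 lower libraries were still above every daughter. Ribosomal protein genes (1 of 70 each way) and clock genes (0 of 19 either way by edgeR) had few calls, and scaling by totals only took the ribosomal genes higher in daughters from 1 to 23. Of the clock genes, 4 had an unadjusted p under 0.05 (Arntl, Per2, Tef and Bhlhe41), DESeq2 called 2 higher in sons and 1 in daughters, and limma-voom called 1 higher in sons.

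Single markers of other liver cells differed between the sexes beside these results. Stellate cell markers summed to 477 ± 51.5 CPM in sons and 681 ± 62.1 in daughters, with 5 of 10 markers higher in daughters (Reln, Des, Dcn, Pdgfrb and Ecm1). Endothelial markers summed to 691 ± 37.7 and 856 ± 60.1 CPM, with 4 of 10 higher in daughters (Pecam1, Stab1, Ptprb and Oit3). Of all autosomal genes tested, 7.12% were higher in daughters. Markers of pericentral hepatocytes, those around the central vein, summed to 16070 ± 500.4 and 11520 ± 1116 CPM. Most of that sum was Cyp2e1 (11060 to 12410 CPM in sons and 7620 to 9241 in daughters). Of the 10 pericentral markers only Cyp2e1 and Cyp1a2 passed, both higher in sons, while Axin2 (-0.68 ± 0.28), Lgr5 (-0.18 ± 0.23) and Glul (-0.086 ± 0.17) did not pass. Neutrophil markers summed to 1.56 ± 0.47 and 6.06 ± 6.74 CPM, with 16.2 in daughter 18. Each of these 4 sums had an exact permutation p of 0.0286 and an adjusted p of 0.0613 over 15 marker lists, and so did not pass. No smaller p is possible with 4 against 4 libraries, and the sexes did not overlap in any of the 4. Whether such a p passes depends on how many lists reach it, not on the size of a difference. The adipocyte, pancreatic acinar and gallbladder and gut sums had the same p and adjusted p, mainly through Cfd, Cela1 and Fabp2. Kupffer cell markers (326 ± 122 and 404 ± 99.6 CPM) and periportal markers (7343 ± 1086 and 7560 ± 1335 CPM) overlapped in sum between the sexes. Most of the periportal sum was Pck1 (3912 to 4480 CPM in sons, 4185 to 5663 in daughters). Ass1 ran from 40.8 to 1858 CPM in sons and from 16.5 to 1469 in daughters. Of the 9 periportal markers Cyp2f2 was higher in sons (0.95 ± 0.10, adjusted p = 1.51e-05) and Ctsc in daughters (-0.55 ± 0.14, adjusted p = 0.0118). Of 6 cholangiocyte markers tested, 1 was higher in daughters (Epcam, -1.16 ± 0.34) and 0 in sons. Of 6 T and NK cell markers, 1 was higher in daughters (Gzma, at most 1.40 CPM in any library) and 0 in sons. Of 3 neutrophil markers, 1 was higher in daughters (S100a9, 6.52 CPM in daughter 18 and under 1 CPM in the other libraries). Kupffer cell markers (0 of 8) and B and plasma cell markers (0 of 4) had no call on autosomes. The part of these cell types in the gene differences was not tested.

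In the livers exposed to BPA, 720 autosomal genes were higher in sons (5.57% of those tested) and 466 in daughters (3.61%). Of the corn oil calls, 500 of the 1375 higher in sons (36.4%) and 286 of the 920 higher in daughters (31.1%) passed in the same direction there, which were 69.4% and 61.4% of the BPA calls. The difference had the same sign in both for 93.7% of the corn oil calls, and 1 gene passed in opposite directions. Of the 30 genes with the largest differences 27 passed in the BPA livers, and Mup1 (adjusted p = 0.0928), Mup2 (0.191) and Adra2a (0.084) did not. Cyp4a12a, Sult2a1 and C6 differed by 10.15, -11.23 and 3.44 there on the log2 scale, next to 7.87, -15.07 and 3.10 in the corn oil livers. Where a sex had 0 counts these fitted values depend on the prior count. The difference between both sex differences passed in 0 genes (0%) by edgeR, with 986 autosomal genes at an unadjusted p under 0.05, in 36 by DESeq2 and in 1 by limma-voom. Hspa1a (-0.22, adjusted p = 0.849), Bag3 (0.02, 0.96) and Gnmt (0.08, 0.734) passed in the corn oil livers and not in the BPA livers, and for none of them did the test of that change pass.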

How the data were processed

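Total RNA of 16 mouse livers was sequenced after ribosomal RNA depletion, per the labels' protocols. The submitters' processing notes name FastQC, HISAT, StringTie and DESeq2 and the builds GRCm38 and mm10, without versions. The authors deposited 1 table of expected counts (estimated counts per gene, already whole; low values pile up at 7, 13 and 20), for 24062 gene symbols. No source used here gives the counting step, its strand setting or how reads with several positions were handled. Symbols were matched to GENCODE M21 on GRCm38, 22750 directly, 916 by an older name and 396 not at all, and genes without a position or on X or Y were left out of the autosomal counts. Promoters came from RefSeq (GRCm38.p6).

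From the counts as deposited, edgeR 4.0.16 in R 4.3.3 fitted 1 mean per group over all 16 libraries, with TMM factors, edgeR's expression filter (13482 genes), a robust quasi-likelihood fit with 12 residual degrees of freedom, and Benjamini-Hochberg adjustment over all tested genes (threshold 0.05). Differences are log2 of sons minus daughters with their SE. CPM use TMM-scaled totals. Family and marker sums of sons and daughters were compared by exact permutation over the 70 splits. A gene that shares at least 20% of its 31-base words with other genes, or of its exon length, is called shared.

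Genes named are the 15 of largest difference in each direction that pass, average at least 1 CPM and do not overlap between the sexes, up to 4 passing genes of lowest p per list (28 lists), members of gene clusters, and fixed regulators; others are said to be chosen after their values were seen or are examples of a list. A few genes that the rule names are not reported here. The members and lists were chosen with earlier results of these data known. Alternatives were other scalings, filters, DESeq2 1.42.0, limma-voom (limma 3.58.1), a fold threshold, and leaving out libraries.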

Additional observations from a re-analysis of the deposited data

Results flagged for a closer look

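In 30 of 344 groups of 4 libraries examined (each named autosomal gene, family sum, marker sum and library measure in each sex), 1 library stood far from the 3 others of its sex by Dixon's ratio at its 95% critical value, where chance gives about 5%. The causes were not tested. All values are CPM unless another unit is given.

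Son 7 was high in Cyp7b1 (249.6, against 132 to 143 in the other sons), Bcl6 (76.0, against 4.53 to 5.58) and Cyp3a44 (236, against 0 to 0.492). Son 3 was high in Mup13 (1364, against 10.5 to 101.9), Cyp2d12 (26.3, against 8.00 to 10.4), Sult2a2 (0.313, against 0) and Mt2 (28.8, against 6.62 to 9.59). Son 10 was high in Mup1 (1715, against 286 to 512), low in Fmo4 (4.56, against 6.57 to 6.70) and at 0 in Cyp3a16 (the others had 16.0 to 18.7). Son 2 was high in Hao2 (0.151, against 0) and in the Cyp2b sum (20.8, against 14.8 to 15.7), and its total of 21090000 counts lay below those of the other sons, 23420000 to 23580000.

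Daughter 17 was high in Cyp4a12b (1.69, against 0.140 to 0.387), Mup13 (7.69, against 0 to 0.465) and Mup20 (251, against 60.5 to 90.8), 3 genes that are higher in sons, and low in Cpt1b (4.50, against 20.6 to 22.9), a gene higher in daughters (adjusted p = 0.0182, but 0.0523 without son 7 and 0.0691 by limma-voom). Daughter 18 was high in Mup2 (240.4, against 0 to 18.7), and it alone among daughters had counts of Treh (0.145) and Pitx3 (0.217). Its neutrophil marker sum was 16.2, against 2.25 to 2.98.

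Daughter 1 was high in Slc22a18 (34.2, against 28.4 to 28.7), Hamp2 (78.3, against 21.9 to 29.4), Ifit2 (15.9, against 10.3 to 10.5), the sum of Gsta1 and Gsta2 (15.5, against 7.36 to 8.30) and the adipocyte marker sum (0.326, against 0.0362 to 0.0483), and low in Gstm1 (341, against 394 to 403). Daughter 4 was high in Pdk4 (149, against 89.96 to 97.5) and in the muscle marker sum (10.9, against 0 to 0.544), and low in Hk2 (1.67, against 3.01 to 3.22).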

How the results depend on the processing

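The count of autosomal genes higher in sons (1375) became 911 in the corn oil libraries alone, 785 with upper quartile factors, 458 with library totals only, 339 against a 1.2-fold threshold (edgeR's glmTreat) and 760 to 1118 with 1 library left out, lowest without son 7. The count higher in daughters (920) became 1930 with totals only, 328 against the 1.2-fold threshold and 658 to 891 with 1 library left out. Genes at least 2-fold higher in daughters (346) became 545 with totals only and 212 against the threshold. Leaving out daughter 17 and son 7 together, chosen after seeing the data, gave 669, 424 and 194. The difference between the sex differences of BPA and corn oil livers (0 genes) gave 36 by DESeq2, 1 by limma-voom, 0 to 1 with 1 library left out and 1 without those 2 libraries. The causes were not tested, beyond the smaller number of libraries. DESeq2 also called 2287 of the 2295 genes and limma-voom 1951. Of 125 named genes that passed, 85 kept their call under each of 19 alternative fits, and 0 reversed. The 1.2-fold threshold was not among those fits and was not applied to the named genes. Medians that changed sign with totals only were those of the organic anion and cation transporters, bile acid, lipogenesis, complement and clock lists. With upper quartile factors the medians of the transporters (-0.042) and of lipogenesis (-0.07) changed sign too. That of lipogenesis also did so with RLE (relative log expression) factors (-0.001). Low counts limit genes under 1 CPM. No paired analysis was possible because sons and daughters share no replicate number.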
